A study of Mus musculus with 199 samples.

Results

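The genes described here are 35 enzymes and carriers of hepatocyte metabolism, taken by their symbols from the 31581 gene rows of the deposited count table. They were chosen by name and not by their values. By known position in the liver lobule, 11 are periportal (among them Cps1, Ass1, Asl, Pck1, G6pc, Fbp1, Hal, Sds, Tat and Cyp2f2) and 9 are pericentral (Cyp2e1, Cyp1a2, Cyp2c29, Cyp2a5, Cyp3a11, Cyp7a1, Glul, Oat and Gstm1). The other 15 were not used as zone markers. They are Hpd, Fah, Hgd, Cyp27a1, Adh1, Aldh1a1, Aldh1b1, Bhmt, Gnmt, Mat1a, Uox, Fabp1, Acaa1b, Ces1c and Ugt2b1.

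RNA was sequenced from 10-cell groups of KP1, a mouse small-cell lung cancer line with genotype Rb1-/-Trp53-/-, cut by laser from frozen sections of 8 µm. KP1 grew as spheroids in culture, as colonies in livers of nude mice (immunocompromised) or as colonies in livers of F1 mice (immunocompetent). The tumour cells of all these groups share the loss of Rb1 and Trp53 and come from 1 line. There were 28 spheroid 10-cell libraries and 20 spheroid controls of the pool-and-split kind, which by their name divide pooled material into 10-cell amounts. For nude liver colonies these numbers were 33 and 35, and for F1 liver colonies 31 and 24. RPC, a pre-cancerous line with genotype Rb1-/-Trp53-/-p130-/+Crebbp-/-, gave 24 libraries of 10 cells, and KP1, KP2 (Rb1-/-Trp53-/-Ptch1+/lacz), KP3 (Rb1-/-Trp53-/-Axin2+/lacz) and KP5 (Rb1-/-Trp53-/- BAT-GAL) gave 1 bulk library each. The labels give no animals, ages or batches. The p-values thus measure the spread between captures, or between divided amounts of pooled material for the pool-and-split controls, and not between animals. A liver capture holds mouse tumour and may hold mouse host cells, and counts of the same mouse gene from either cannot be separated. More cells of a type and more RNA per cell cannot be told apart either.

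Hepatocytes divide their metabolism along the path of blood through the lobule. Near the portal vein they make urea and glucose and break down amino acids, and near the central vein they make glutamine, bile acids and the cytochromes P450 that oxidise drugs. Fatty acid carriage by Fabp1 and the methionine cycle of Mat1a, Gnmt and Bhmt also belong to the differentiated hepatocyte, whose transcription depends on factors such as HNF1, HNF4A and C/EBP.

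The stretches of promoter sequence shown next belong to 4 of the genes described below. Fabp1 had no counts in spheroids and the highest mean level per length of the 35 in 10-cell libraries of both livers. Gnmt had the highest fitted rise in nude livers among the 6 genes that passed the low-count filter there, Pck1 is periportal and Cyp3a11 is pericentral. Each is the 250 bases before the RefSeq transcription start on GRCm38.p6, read 5′ to 3′ on the gene's strand, with matches to 4 sets of letters in capitals. The letters searched on both strands were GTTAAT (an HNF1 half-site), CAAAGTCCA (HNF4A), TTGCNNAA (C/EBP) and, for the TATA box, TATAAA.
Fabp1, chr6:71199629-71199878, plus strand: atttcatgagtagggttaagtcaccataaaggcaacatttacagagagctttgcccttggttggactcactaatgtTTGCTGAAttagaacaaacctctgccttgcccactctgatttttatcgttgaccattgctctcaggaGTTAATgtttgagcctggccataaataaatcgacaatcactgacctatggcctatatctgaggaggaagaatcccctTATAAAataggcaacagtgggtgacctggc
Gnmt, chr17:46729166-46729415, minus strand: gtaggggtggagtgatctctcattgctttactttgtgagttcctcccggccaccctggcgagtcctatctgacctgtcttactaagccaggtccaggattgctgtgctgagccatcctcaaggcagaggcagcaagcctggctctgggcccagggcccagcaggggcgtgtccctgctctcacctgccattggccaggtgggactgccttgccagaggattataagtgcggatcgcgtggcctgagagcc
Pck1, chr2:173152823-173153072, plus strand: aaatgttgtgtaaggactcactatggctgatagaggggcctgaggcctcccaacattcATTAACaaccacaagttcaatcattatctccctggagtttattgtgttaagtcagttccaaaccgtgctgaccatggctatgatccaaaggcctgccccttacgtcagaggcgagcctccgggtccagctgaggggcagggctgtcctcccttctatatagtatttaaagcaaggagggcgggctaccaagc
Cyp3a11, chr5:145879855-145880104, minus strand: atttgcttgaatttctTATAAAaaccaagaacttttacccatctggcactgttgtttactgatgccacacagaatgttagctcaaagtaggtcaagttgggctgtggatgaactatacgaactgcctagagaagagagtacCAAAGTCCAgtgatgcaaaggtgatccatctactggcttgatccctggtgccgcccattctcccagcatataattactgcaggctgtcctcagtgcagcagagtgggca
In Fabp1 the capitals are, in order, a C/EBP, an HNF1 and a TATA match, which begin 174, 107 and 30 bases before the start. The Pck1 match is an HNF1 half-site on the other strand. Cyp3a11 holds a TATA match far from its start and the HNF4A match, and Gnmt holds none of the 4. RefSeq promoter windows of 300 bases, which run 50 bases past the start, were matched for 29 of the 35 genes (31 windows). Of these, 12.9% held the HNF1 half-site against 7.10% of all 32851 windows. The C/EBP letters were in 25.8% against 10.8%, the TATA letters in 32.3% against 13.6%, and the HNF4A letters in 1 of 31 against 0.475%. These are matches of letters and not measured binding.

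Gene counts per library ran from 718208 to 5830589 in the 171 captured KP1 libraries, so levels are given as CPM, counts scaled by the library's total of gene counts. The median depth was 4389716 in spheroid, 2792423 in nude liver and 4587300 in F1 liver 10-cell libraries, so nude libraries were the shallowest. Tumour identity was checked with 10 neuroendocrine markers, which were all detected in every one of the 6 KP1 groups. Of 10 hepatocyte markers (Alb, Ttr, Apoa1, Apoa2, Apoc3, Serpina1c, Trf, Fgb, Ahsg and Hpx), 4 were detected in any spheroid 10-cell library, with Alb, Apoa1, Apoc3, Serpina1c, Fgb and Ahsg at 0, and all 10 in each liver group. Their summed level in 10-cell libraries was 0 to 83.6 CPM for spheroids, 33.4 to 4388 for nude livers and 0 to 1948 for F1 livers, with pools at 0 to 62.0, at 146 to 4158 and at 0 to 1029. Markers of some other liver cells were also higher in liver captures. The summed 8 Kupffer and macrophage markers were at 0 in every spheroid library and had a median of 12.9 CPM in nude and 13.1 in F1 liver 10-cell libraries. In spheroid, nude and F1 10-cell libraries 5 erythroid genes had medians of 0, 551 and 1622 CPM, 5 stellate markers 67.6, 201 and 121, and 6 endothelial markers 0.234, 14.7 and 1.59. The 5 cholangiocyte markers had lower medians in the livers (48.1, 29.1 and 23.6 CPM), and the 5 T and NK cell markers had a median of 0 in all 3 groups. The part of these cells in any result below was not tested. ERCC spike-in counts were at least 0.1% of the total in 9 spheroid captures of 10 cells and lower in 19, and of the F1 libraries 5 of 31 10-cell and 5 of 24 pool libraries stood below a gap in the pseudogene Rpl19-ps11.

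In spheroids the hepatocyte enzymes ranged from no count at all to counts in every 10-cell library. In the 28 spheroid 10-cell libraries, 19 of the 35 had no count at all and are called silent here. By counting error only (3 counts), this allows at most 0.0241 CPM for each over the group, called the spheroid floor. The floor is no limit for the culture as a whole, since Tat, among the 19, had counts in bulk KP1 spheroids. The 19 were 7 periportal genes (among them Cps1, Pck1, G6pc, Sds, Tat and Cyp2f2), 5 pericentral (Cyp1a2, Cyp2c29, Cyp2a5, Cyp3a11 and Cyp7a1) and 7 others (Hpd, Hgd, Adh1, Uox, Fabp1, Ces1c and Ugt2b1). In the 20 spheroid pools 15 of the 19 also had no count, while Hgd had 31 counts in 1 pool, Cyp2c29 2.32 expected counts over 2 pools and Uox 1 count. At least 1 count appeared for 18 of these 19 in nude and for 16 in F1 10-cell libraries. Only 5 of the 35 (Asl, Glul, Oat, Gstm1 and Aldh1b1) were found in at least 14 of the 28 spheroid libraries. A library held a median of 5 of the 35 in spheroids, with a range of 3 to 12. In nude livers the median was 15 (5 to 25) and in F1 livers 8 (2 to 22), so the ranges overlapped. The order was the same after every library was thinned to 718149 counts, where the medians were 5, 13 and 7.

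**Figure D1:**
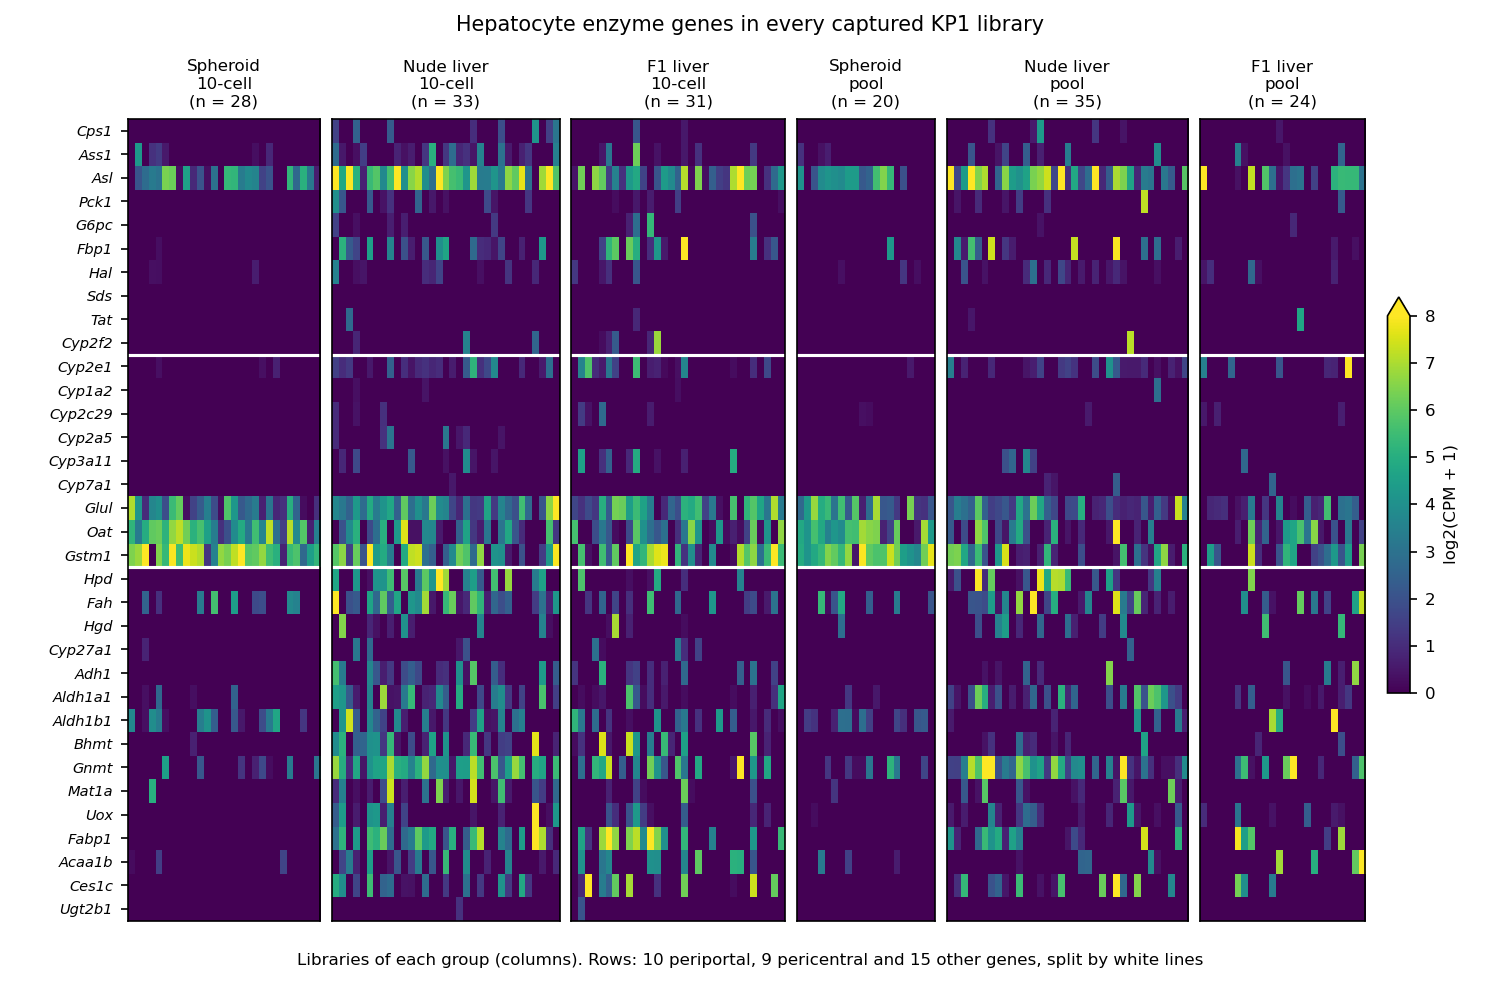
Level of 34 of the genes (rows, grouped as periportal, pericentral and other) in each of the 171 captured KP1 libraries (columns), as log2(CPM + 1); the colour scale is capped at its top value. Rows that are dark in all 28 spheroid 10-cell libraries are lit in scattered columns of the liver groups, while Asl, Glul, Oat and Gstm1 are lit in many columns of every group, Oat in 17 of 35 nude pools.

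**Figure D2:**
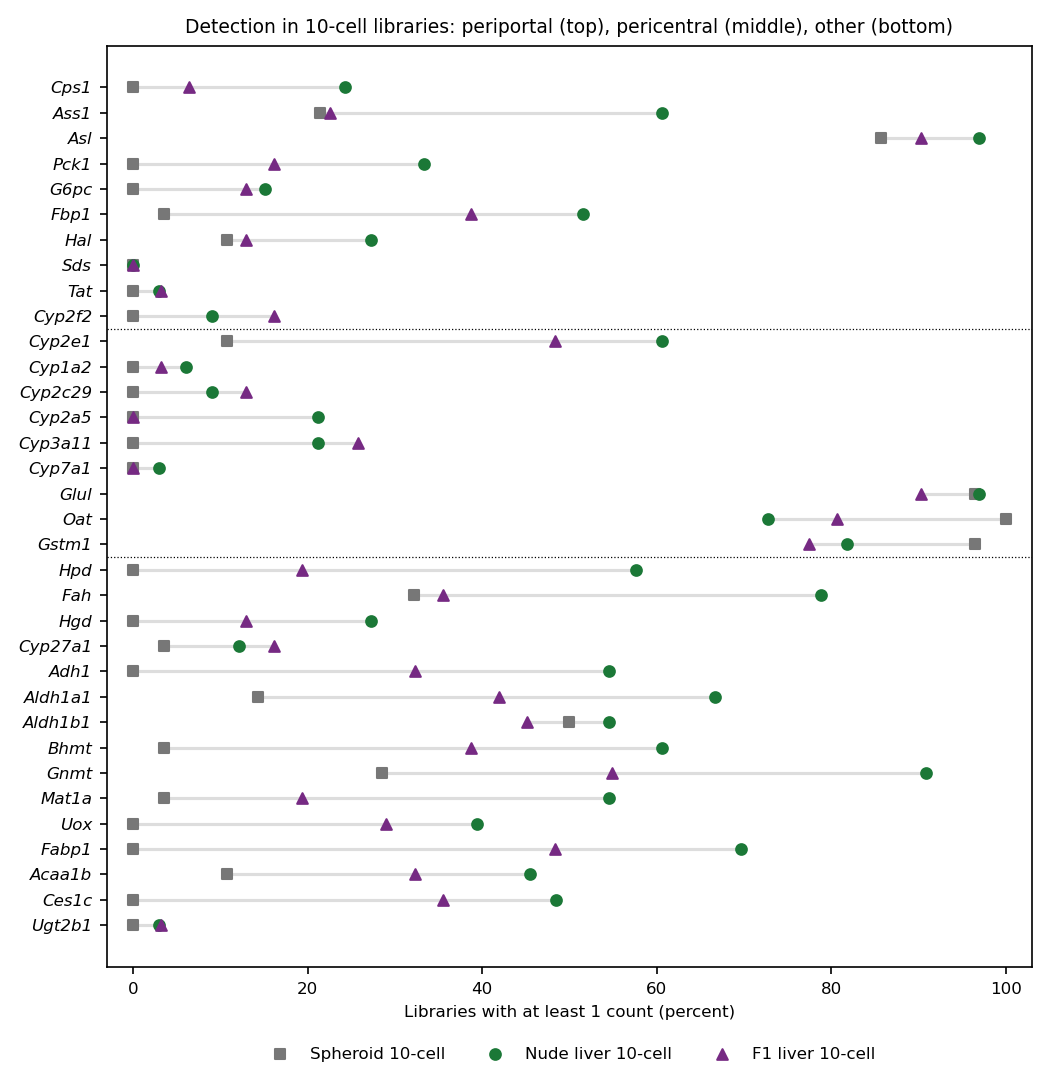
Percentage of libraries with at least 1 count of each of 34 genes in 28 spheroid, 33 nude liver and 31 F1 liver 10-cell libraries. Nude liver symbols lie to the right of F1 symbols for 26 of the 34 genes shown.

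The urea cycle disposes of ammonia in periportal hepatocytes, and its genes differed widely. Asl, argininosuccinate lyase, which releases arginine and also acts outside the liver, was found in every group and was higher on average in liver colonies. In spheroids it had 0, 6.51 and 82.8 CPM as lowest, median and highest of 28 libraries, in nude livers 0, 49.1 and 827 of 33, and in F1 livers 0, 5.73 and 556 of 31. The groups overlapped, with most nude libraries above the spheroid median and the F1 median below it. Its mean was 14.8 ± 21.6 (SD, n = 28), 121 ± 193 (n = 33) and 46.4 ± 103.2 CPM (n = 31). Asl (chromosome 5, 130011258 to 130029247, minus strand) rose in nude livers by 2.88 on the log2 scale (SE 0.63, edgeR adjusted p = 0.000174) and in F1 livers by 2.23 (SE 0.76, edgeR adjusted p = 0.0395). The F1 call was lost with limma-voom (log2 1.11, adjusted p = 0.323, where the median of all genes was -0.44) and against either part of the spheroid libraries alone (2.36 with more and 2.23 with less spike-in, edgeR adjusted p = 0.381 and 0.116). It was also lost within the 5 F1 libraries under the Rpl19-ps11 gap (log2 0.19, adjusted p = 0.96), while in the other 26 it stood at 2.54 (edgeR adjusted p = 0.0181).

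Ass1, argininosuccinate synthase, which makes the substrate of Asl, was found in 6 of 28 spheroid, 20 of 33 nude and 7 of 31 F1 libraries. Its means of 0.811, 2.57 and 2.77 CPM rested on few libraries: F1 library 12 alone had 74.1 CPM, 86.4% of the F1 sum. Cps1, carbamoyl phosphate synthetase, the mitochondrial entry step, was at 0 in all 48 spheroid libraries and was found in 8 nude libraries, at up to 16.8 CPM, and in 2 F1 libraries, at 3.44 and 0.424 CPM. Its mean was 1.24 ± 3.28 CPM in nude livers, at least 51.5-fold higher than the spheroid floor, and 0.125 ± 0.619 CPM in F1 livers. Without nude library 32 the nude mean was 0.754 CPM, at least 31.3-fold above that floor. The F1 mean rested on library 12, without which it was 0.0141 CPM and below the floor.

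Gluconeogenesis was seen mostly through Fbp1, fructose-1,6-bisphosphatase. Fbp1 had 1 count in all spheroid 10-cell libraries. It was found in 17 nude libraries, with a highest value of 34.5 CPM and a mean of 4.52 ± 8.60, and in 12 F1 libraries, with a highest value of 266 and a mean of 16.2 ± 49.8. Pck1, phosphoenolpyruvate carboxykinase, which commits carbon to glucose, was at 0 in spheroid 10-cell libraries and was found in 11 nude and 5 F1 libraries, at no more than 14.9 and 1.80 CPM. G6pc, glucose-6-phosphatase, which releases free glucose, was found in 5 and 4. F1 library 14 had 39.4 CPM of G6pc and 0.53 of Pck1, and nude library 1 had 14.9 CPM of Pck1 and 1.99 of G6pc. The highest values of these genes lay in different libraries.

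Genes of amino acid breakdown ranged from Fah, found in 26 of 33 nude libraries, to Sds, found in no captured KP1 library. Hpd, which oxidises 4-hydroxyphenylpyruvate from tyrosine, had no count in any of the 48 spheroid libraries. In nude livers it was found in 19 of 33 with a median of 8.60 and a highest value of 345 CPM. In F1 livers it was found in 6 of 31, with a highest value of 53.6. The nude mean of 28.9 ± 64.1 CPM was at least 1201-fold above the spheroid floor and the F1 mean of 3.03 ± 10.8 at least 126-fold. Without the highest library of each liver these were at least 790-fold, at 19.0 CPM, and at least 55.6-fold, at 1.34 CPM. Hpd overlaps Psmd9 on the opposite strand, and no source used here says that counting used strand.

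Fah, fumarylacetoacetase, the last step of tyrosine breakdown, was also transcribed in culture. It had 0, 0 and 47.8 CPM as lowest, median and highest in spheroids, 0, 4.23 and 274 in nude livers and 0, 0 and 44.7 in F1 livers. The F1 libraries thus covered about the same range as spheroids, and the 26 nude libraries with counts reached higher. Fah (chromosome 7, 84585159 to 84606722, minus strand) rose in nude livers by 2.22 (log2, SE 0.87, edgeR adjusted p = 0.041). Without the nude library of highest summed enzyme level this was 1.72 (edgeR adjusted p = 0.109), and DESeq2 gave 2.06 (adjusted p = 0.06). Against the 9 spheroid libraries with more spike-in it was 0.89 (edgeR adjusted p = 0.659), and against the other 19 it was 3.75 (edgeR adjusted p = 0.00456).

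Hgd, homogentisate dioxygenase, lies between Hpd and Fah in the pathway. It was at 0 in spheroid 10-cell libraries and was found in 9 nude and 4 F1 libraries, and F1 library 9 with 124 CPM held 99.1% of the F1 sum. Hal, histidine ammonia-lyase, reached 10.6 CPM in nude library 1 and no more than 3.44 in any other KP1 10-cell library. Tat, tyrosine aminotransferase, was found in 1 library of each liver 10-cell group, yet bulk KP1 spheroids had 4.63 CPM and bulk KP3 4.81. Sds, serine dehydratase, had no count in any 10-cell or pool library. By counting error only, this allows at most 0.0329 CPM over the nude and 0.0221 over the F1 10-cell libraries.

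The cytochromes P450 had low means in the 10-cell libraries. Cyp2e1, the ethanol-oxidising pericentral enzyme, was found in 3 of 28 spheroid, 20 of 33 nude and 15 of 31 F1 libraries. Its mean was 0.0419 ± 0.138 CPM in spheroids, 2.40 ± 6.49 in nude livers and 4.46 ± 12.5 in F1 livers, 57.2 and 106 times the spheroid mean, which itself rested on 5.54 expected counts. The highest were nude library 22 with 35.7 CPM and F1 libraries 4 and 12 with 55.1 and 44.1. Without library 22 the nude ratio was 32.3, and without library 4 the F1 ratio was 66.1. Cyp3a11, a broad drug oxidiser, was found in 7 nude libraries, with a mean of 0.666 ± 2.51 CPM, and in 8 F1 libraries, with a mean of 2.86 ± 8.14. Cyp2f2, the periportal member of the family, was found in 3 and 5, with 109 CPM in F1 library 15 and no more than 3.84 in any other F1 library.

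Cyp1a2, Cyp2c29 and Cyp7a1, the rate-limiting enzyme of bile acid synthesis, stayed at or under 5.59 CPM in every liver 10-cell library, and Cyp7a1 was found in 1 nude and no F1 library. Cyp27a1, which oxidises sterol side chains, was found in 4 nude and 5 F1 libraries. Cyp2a5 was found in 7 nude libraries and in no other captured group. Its near copy Cyp2a4 was found in the same number of nude libraries, 4 of them shared, and counts of this pair may be split between the copies.

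Glutamine and ornithine metabolism behaved differently, since its genes were already transcribed in culture. Glul, glutamine synthetase, the classic marker of the last cells before the central vein, was found in 27 of 28 spheroid, 32 of 33 nude and 28 of 31 F1 libraries. Its medians were 4.50, 8.29 and 8.83 CPM and its highest values 132.5, 346 and 130.4. Glul did not pass the test in nude livers (log2 0.86, SE 0.61, edgeR adjusted p = 0.279) or in F1 livers (log2 0.81, SE 0.63, edgeR adjusted p = 0.429). Oat, ornithine aminotransferase, had its lowest, median and highest values at 0.631, 29.4 and 146 CPM in spheroids, at 0, 2.41 and 193 in nude livers and at 0, 2.72 and 100.1 in F1 livers. Every spheroid library had counts of Oat, against 24 of 33 and 25 of 31 in the livers, and the ranges overlapped. Oat (chromosome 7, 132557478 to 132576398, minus strand) fell by 1.67 on the log2 scale in nude livers (SE 0.63, edgeR adjusted p = 0.0322). Against the 9 spheroid libraries with more spike-in the log2 value was -0.87 (edgeR adjusted p = 0.584). The F1 value was -1.22 (SE 0.64, edgeR adjusted p = 0.208), with a limma-voom value of -2.79 (adjusted p = 0.0009).

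Gstm1, a glutathione transferase, was the most abundant of the 35 in spheroids, with a median of 62.3 CPM and a highest value of 339. Its medians were 12.8 in nude and 24.5 in F1 livers, with log2 values of -1.26 (SE 0.59, edgeR adjusted p = 0.0908) and -0.63 (SE 0.64, edgeR adjusted p = 0.568), neither past the threshold. With limma-voom both were called lower, at -2.25 in nude (adjusted p = 0.00545) and -2.12 in F1 livers (adjusted p = 0.0409), where the median of all genes was -0.18 and -0.44. Aldh1b1, a mitochondrial aldehyde dehydrogenase, was found in 14 of 28, 18 of 33 and 14 of 31 libraries. The liver alcohol dehydrogenase Adh1 was at 0 in all 48 spheroid libraries and was found in 18 nude libraries, at up to 58.4 CPM, and in 10 F1 libraries, at up to 33.7. Aldh1a1, which oxidises retinal, was found in 4, 22 and 13 libraries, with means of 0.377, 10.5 and 2.74 CPM. Ugt2b1, a glucuronosyltransferase, had counts in 1 library of each liver group. Ces1c, a secreted carboxylesterase, was found in 16 nude libraries, none above 44.1 CPM, and in 11 F1 libraries, of which library 4 alone had 2459 CPM, 82.7% of the F1 sum. Its F1 mean was 95.9 CPM with that library and 17.1 without it, against 4.99 ± 10.3 in nude livers.

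Of the methionine cycle genes, Gnmt alone passed the low-count filter in nude livers. Gnmt, glycine N-methyltransferase, which uses up S-adenosylmethionine, had 0, 0 and 21.9 CPM as lowest, median and highest in spheroids, 0, 24.3 and 144 in nude livers and 0, 0.419 and 449 in F1 livers. It was found in 8 of 28, 30 of 33 and 17 of 31 libraries, so the nude median stood above the highest spheroid library. Gnmt (chromosome 17, 46725664 to 46729168, minus strand) rose in nude livers by 4.36 (log2, SE 0.82, edgeR adjusted p = 1.55e-05). It passed the low-count filter mainly through the livers, with at least 5 counts in 27 of 33 nude and 6 of 28 spheroid libraries. In the F1 comparison Gnmt did not pass the filter on low counts. DESeq2 and the fit without a filter both called it higher. Against the spheroid libraries with less spike-in it was called (log2 4.55, edgeR adjusted p = 0.0206). It was not called against those with more (6.08, edgeR adjusted p = 0.108) or with the F1 libraries below the Rpl19-ps11 gap (2.16, edgeR adjusted p = 0.439). Bhmt, which remethylates homocysteine from betaine, had 3 counts in spheroids and was found in 20 nude and 12 F1 libraries, with means of 12.8 ± 35.8 and 16.4 ± 45.0 CPM. Mat1a, the hepatocyte S-adenosylmethionine synthetase, was found in 18 nude libraries, at up to 178 CPM, and in 6 F1 libraries, of which library 19 with 72.5 CPM held 92.4% of the sum.

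Fabp1, the liver fatty acid-binding protein (chromosome 6, 71199827 to 71205023, plus strand), was at 0 in all 48 spheroid and all 24 RPC libraries. It had 0, 6.96 and 299 CPM as lowest, median and highest in nude livers and 0, 0 and 366 in F1 livers. It was found in 23 of 33 and 15 of 31 libraries. The remaining libraries had none, and the lowest value above 0 was 1.18 CPM in nude and 1.37 in F1 livers. Its mean was 31.3 CPM in nude livers, below Asl (121), Gstm1 (45.3) and Gnmt (35.2). In F1 livers it was 44.6 CPM, below Ces1c (95.9), Gstm1 (56.2) and Asl (46.4). Per kilobase of its longest coding transcript (553 bases) Fabp1 was the highest of the 35 in 10-cell libraries of both livers. Its mean levels were then 56.6 CPM per kilobase in nude and 80.7 in F1 livers. In nude pools it stood at 18.6 CPM per kilobase, below Asl (46.2), Gnmt (43.9) and Hpd (18.8). Uox, urate oxidase, was found in 13 nude and 9 F1 libraries, and nude library 32 with 375 CPM held 80.4% of the nude sum. Acaa1b, a peroxisomal thiolase, was found in 15 and 10, but its expected counts carried decimals in every one of these and its copy Acaa1a was found in 32 and 31, so its values are uncertain.

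**Figure D3:**
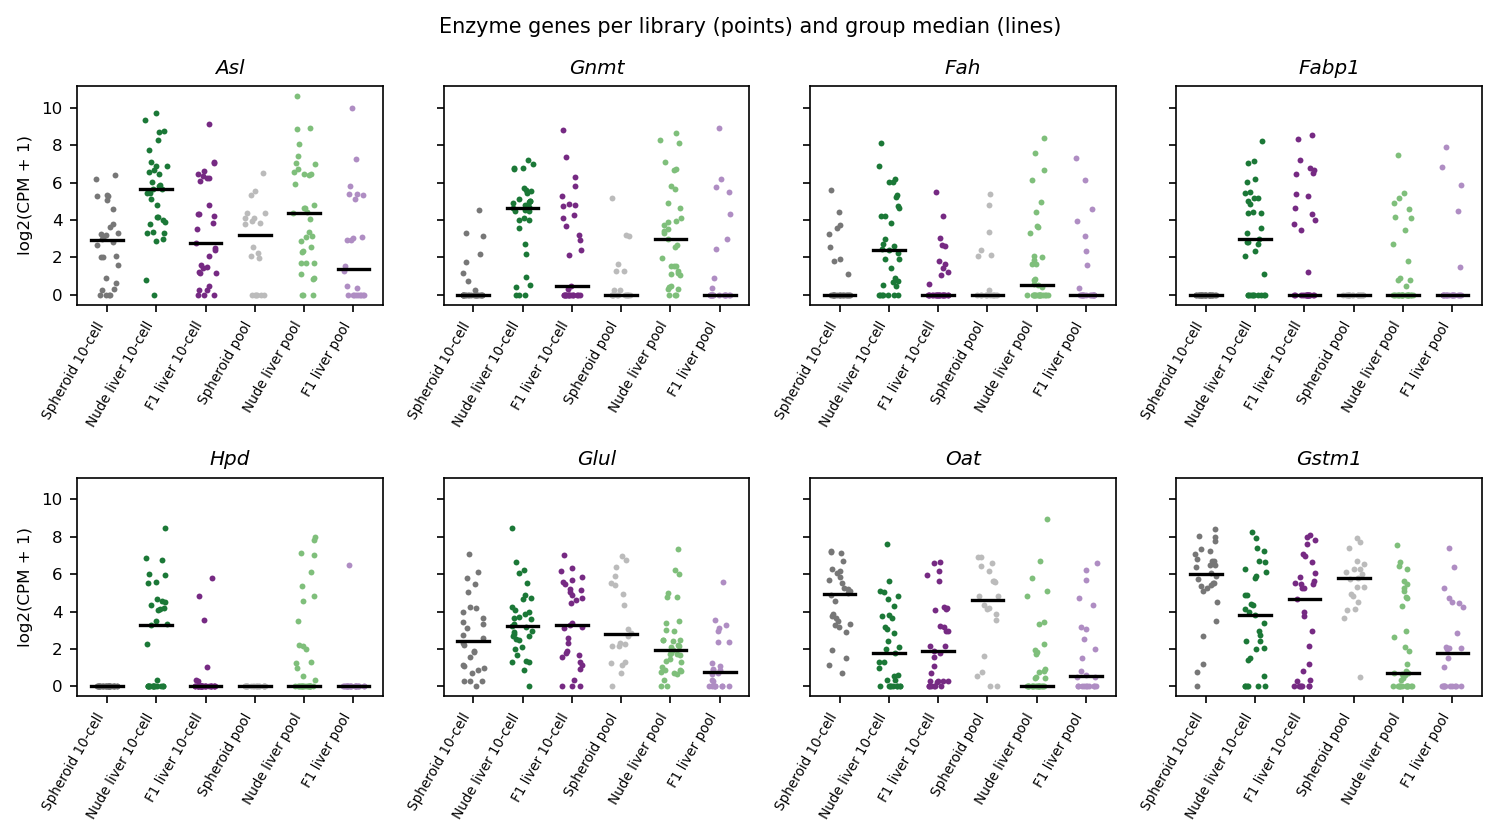
Level of 8 genes as log2(CPM + 1) in every captured KP1 library (points) with the group median (lines). Fabp1 and Hpd have all 48 spheroid points at 0, Gnmt has 30 of 33 nude liver 10-cell points above 0, and the Oat and Gstm1 medians are highest in spheroids.

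In the test of nude livers against spheroids, 6 of the 35 genes passed the low-count filter and 4 were called, Gnmt, Asl and Fah upwards and Oat downwards. Over all genes 34.1% of 7834 were called, and 6 genes are few to set beside that share. Since Gnmt passed the filter mainly where it was high, nothing is read from this count or from the median of the tested genes. In F1 livers 4 passed and 1, Asl, was called, against 12.6% of 7309 genes. The median log2 value was 1.54 over the 6 tested genes and -0.04 over all genes in nude livers, and 0.09 over the 4 and 0.22 over all genes in F1 livers. None of the genes at 0 in spheroid 10-cell libraries passed this filter. Among them Fabp1 had at least 5 counts in 23 and Hpd in 18 of 33 nude libraries. Against the spheroid libraries with more or with less spike-in alone, both of these passed it. Without a filter 25 rose and 1 fell in nude livers, where 42.0% of 20050 genes were called, and 23 rose in F1 livers, where 26.7% of 19000 were. DESeq2 called 17 up and 1 down, against 36.3% of genes, and 11 up, against 20.7%. DESeq2 and the fit without a filter shared 17 called genes in nude livers, among them Hpd, Fabp1, Adh1, Cps1 and Pck1, and 11 in F1 livers, among them Fabp1, Adh1, Cyp2e1 and Cyp3a11. Genes with 0 counts in spheroids could only differ upwards, so the direction of these counts is fixed for them.

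Direct comparison of the livers gave 1 call among the 7 genes that passed the filter, against 19.2% of 7064 genes. Fah was lower in F1 than in nude livers by a log2 value of -2.49 (SE 0.85, edgeR adjusted p = 0.0285). Without the library of highest summed enzyme level in each liver group it was -1.94 (edgeR adjusted p = 0.0914), and within the 26 F1 libraries above the Rpl19-ps11 gap -2.31 (edgeR adjusted p = 0.065). Over the 5 below the gap it was -3.34 (edgeR adjusted p = 0.271). The summed hepatocyte markers had a median of 842 CPM in nude and 198 in F1 10-cell libraries, and Alb itself was lower in F1 livers (log2 -1.80, SE 0.63, edgeR adjusted p = 0.0341), the only call among 9 hepatocyte markers tested. The part of these markers in the Fah difference was not tested. Gnmt did not differ past the threshold in edgeR (log2 0.53, SE 0.76, adjusted p = 0.677). With limma-voom, which works on log values per library, it was lower in F1 livers (log2 -2.63, adjusted p = 0.0111), as was Asl (log2 -2.07, adjusted p = 0.0182), where the median of all genes was -0.27. Its sign was also negative with DESeq2 (-0.70, adjusted p = 0.505) and over the 5 F1 libraries below the gap (-2.08, edgeR adjusted p = 0.369), neither called. The F1 mean of 30.0 CPM falls to 16.1 without library 27, while the F1 median was 0.419 against 24.3 in nude livers. The other 5 genes had edgeR log2 values between -0.61 (Asl) and 0.86 (Fabp1), and the lowest adjusted p among them was 0.513. DESeq2 gave -1.34 for Asl (adjusted p = 0.0626). Without a filter 12 were called, 6 in each direction, where 31.7% of 19872 genes were. Ces1c, G6pc, Cyp2f2, Cyp3a11, Fbp1 and Cyp2c29 were higher in F1 and Cps1, Pck1, Cyp2a5, Uox, Hpd and Fah higher in nude livers. DESeq2 called 4, Fah, Hgd, Mat1a and Aldh1a1, all lower in F1, against 22.2%, and shared with the unfiltered edgeR test Fah alone. Single libraries set many of these levels: 11 of the 35 genes in nude and 20 in F1 livers had over 50% of their summed CPM in 1 library.

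Periportal and pericentral genes were then set against each other. Over all 20 zone genes the periportal share of the summed CPM had a median of 6.11% in spheroids, 42.9% in nude livers (range 6.08% to 100%) and 23.7% in F1 livers (0% to 95.0%). This share was largely that of Asl against Glul, Oat and Gstm1, the 4 zone genes found in most spheroid libraries. Without Asl and Gstm1 the medians were 21.4% in nude and 0.204% in F1 livers. Zone genes with any count in spheroid 10-cell libraries were then left out. Among them were periportal Fbp1 (means of 4.52 CPM in nude and 16.2 in F1 livers) and pericentral Cyp2e1 (2.40 and 4.46). The 12 zone genes at 0 in spheroid 10-cell libraries had few counts. In the 25 of 33 nude and 15 of 31 F1 libraries with any count of them the periportal share had a median of 88.9% and 42.9%. Their 7 periportal genes together had a mean of 3.14 ± 5.21 CPM in nude and 5.598 ± 20.6 in F1 livers, and the 5 pericentral genes 1.36 ± 3.15 and 3.12 ± 8.28. Without the highest library of each value the periportal means were 2.56 in nude and 2.14 in F1 livers, and the pericentral means 0.935 and 2.25, so the order in F1 livers rested on library 15 with 109 CPM. Leaving out the highest library of a value, here and for Cps1, Hpd and Cyp2e1, was chosen after the values were seen. Within each liver the means of both zones differed by less than the SD between libraries. That SD is not the error of a mean, the sums are over 7 and 5 genes, and the difference was not tested.

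Genes of both zones were found together in some captures. The silent genes leave out Cyp2e1, found in 20 of 33 nude and 15 of 31 F1 libraries, and Fbp1, found in 17 and 12. The words alone and neither thus refer to the silent genes only. Of 33 nude libraries, 10 had counts of silent genes of both zones, 11 of periportal genes alone, 4 of pericentral genes alone and 8 of neither. Of 31 F1 libraries these numbers were 8, 4, 3 and 16. In pools both zones were found in 4 of 35 nude and 2 of 24 F1 libraries. F1 library 12 held 3.44 CPM of Cps1 and 74.1 of Ass1 together with 44.1 of Cyp2e1 and 29.4 of Cyp3a11. Cps1 and Ass1 were found together in 5 nude libraries, Cps1 alone in 3 and Ass1 alone in 15. Cps1 and Cyp2e1, of opposite zones, were found together in 4, apart in 4 and 16. Fbp1 and Cyp2e1 were found together in 14 of the 17 nude libraries with Fbp1 and in 10 of the 12 F1 libraries with it. Pck1 and Cyp3a11 were found together in 3 of the 11 nude and 1 of the 5 F1 libraries with Pck1. Whether these numbers differ from independent occurrence was not tested. No capture label gives a position in the lobule, so which zone a colony lay in was not measured.

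**Figure D4:**
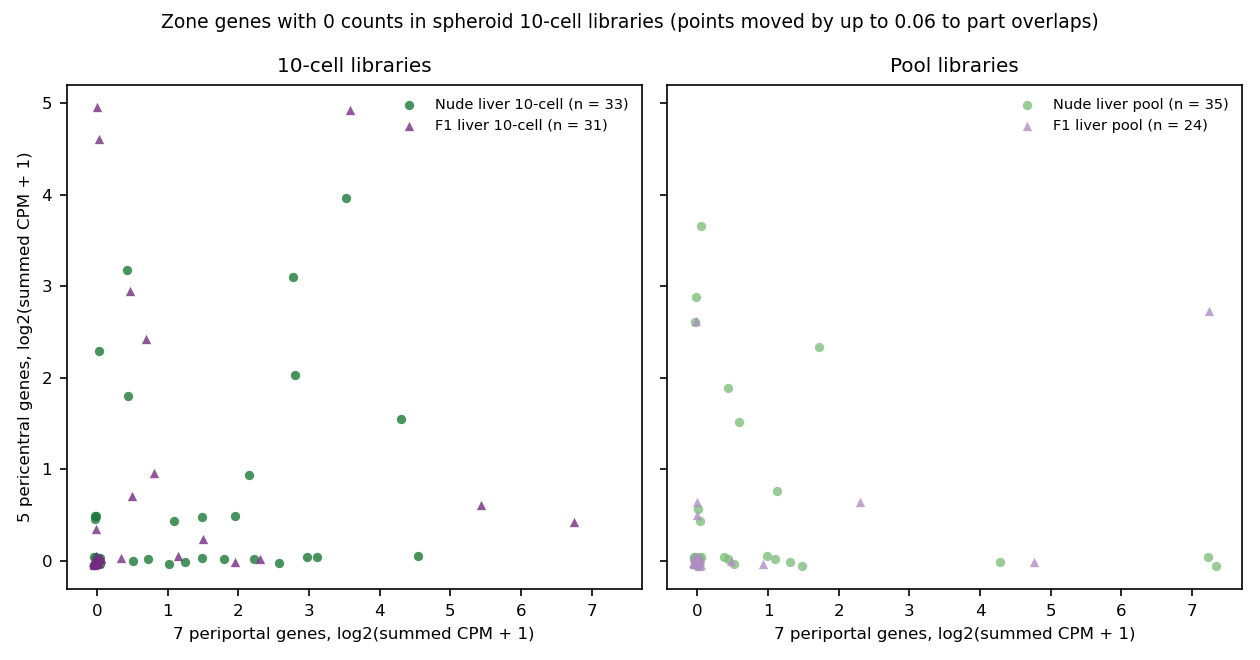
Summed level of the 7 periportal (x axis) and the 5 pericentral genes (y axis) that were at 0 in spheroid 10-cell libraries, as log2(summed CPM + 1), per liver library. Points lie along both axes and in between, with 10 of 33 nude and 8 of 31 F1 10-cell libraries off both axes.

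The enzymes were followed next to Alb, albumin, the main secreted product of hepatocytes. Every one of the 23 nude and 15 F1 10-cell libraries with Fabp1 also had Alb, as did all liver 10-cell libraries with Cps1 or Hpd, while 9 nude and 9 F1 libraries had Alb without Fabp1. Alb was found in 32 of the 33 nude 10-cell libraries, which left little room for the genes to occur without it. Of the F1 pools, 1 each had Fabp1, Cps1 and Hpd without Alb. Over the 33 nude libraries log2 levels of Fabp1 and Alb correlated with r = 0.457 (permutation p = 0.00577, adjusted 0.0282) and rho = 0.416 (permutation p = 0.0169, adjusted 0.0282). Over the 31 F1 libraries r was 0.683 (permutation p = 7e-05, adjusted 0.0007) and rho 0.709 (permutation p = 4e-05, adjusted 0.0004). For Adh1 and Alb r was 0.437 in nude (permutation p = 0.0112, adjusted 0.0282) and 0.391 in F1 livers (permutation p = 0.0244, adjusted 0.0349), with rho 0.558 (permutation p = 0.00099, adjusted 0.00463) and 0.364 (permutation p = 0.0443, adjusted 0.0554). For Ces1c and Alb r was 0.428 in nude (permutation p = 0.0133, adjusted 0.0282) and 0.427 in F1 livers (permutation p = 0.0153, adjusted 0.0282), with rho 0.525 (permutation p = 0.00195, adjusted 0.00487) and 0.561 (permutation p = 0.00139, adjusted 0.00463). For Hpd and Alb r did not pass in either liver, at 0.316 in nude (permutation p = 0.0721, adjusted 0.0818) and 0.323 in F1 livers (permutation p = 0.0736, adjusted 0.0818), with rho 0.279 (permutation p = 0.114, adjusted 0.114) and 0.405 (permutation p = 0.024, adjusted 0.0343). Without the 2 libraries farthest from the median of Alb, r for Adh1, Ces1c and Hpd was 0.441, 0.441 and 0.198 in nude and 0.429, 0.433 and 0.406 in F1 livers. Within the 26 F1 libraries above the Rpl19-ps11 gap it was 0.375, 0.465 and 0.314. The remaining pair, Fbp1 and Cyp2e1, had r = 0.149 in nude (permutation p = 0.417, adjusted 0.417) and 0.434 in F1 livers (permutation p = 0.0169, adjusted 0.0282), with rho 0.326 (permutation p = 0.0662, adjusted 0.0736) and 0.533 (permutation p = 0.00263, adjusted 0.00526). Without the 2 libraries farthest from the median of Cyp2e1 r was 0.135 and 0.567, and within those 26 F1 libraries 0.437. The adjustment covers 10 relations whose pairs were chosen after the values were seen, and libraries may share animals. For Fabp1 within those 26 F1 libraries r was 0.681, the 5 below the gap being too few for a value, and without the 2 libraries farthest from the median of Alb it was 0.357 in nude and 0.625 in F1 livers. The 19 genes at 0 in spheroid 10-cell libraries together had a mean of 93.5 CPM in nude and 159 in F1 livers, which was 7.24% and 32.4% of the mean summed hepatocyte markers. Without the highest library of each group the enzyme means were 74.4 and 82.7 CPM. Of the 31 F1 libraries 4 had no hepatocyte marker at all, and none of the 19 genes was found in them.

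In the pools, which by their name are divided amounts and not replicates of a condition, Gnmt and Asl also differed between nude livers and spheroids. Against spheroid pools, nude liver pools had higher Gnmt (log2 3.95, SE 1.08, edgeR adjusted p = 0.00382) and Asl (log2 2.90, SE 0.91, edgeR adjusted p = 0.0135), 2 calls among 6 genes tested where 25.6% of 8010 were called. Gnmt was found in 32 of 35 nude pools, with a median of 7.05 and a highest value of 396 CPM, and in 8 of 20 spheroid pools. At least 5 counts were in 23 of the nude and 6 of the spheroid pools, so it passed the filter mainly through the nude pools. Against only the 6 spheroid pools with more spike-in neither passed, at 2.50 for Gnmt (edgeR adjusted p = 0.415) and 1.51 for Asl (edgeR adjusted p = 0.596). F1 pools against spheroid pools gave no edgeR call among 4 genes, where 11.6% of 7249 were called. Of the 4, Glul stood at -2.25 (SE 0.85, edgeR p = 0.0103, adjusted 0.0707) and Asl at 2.68 (SE 1.13, edgeR p = 0.0214, adjusted 0.114). Without the F1 pool of highest summed enzyme level the Asl value was 0.59 (edgeR adjusted p = 0.751). Glul was called lower by DESeq2 (-2.09, adjusted p = 0.0326), by limma-voom (-2.48, adjusted p = 0.00909, where the median of all genes was -1.45) and in edgeR with RLE scaling (-2.46, adjusted p = 0.0463) or no filter (-2.32, adjusted p = 0.0473). DESeq2 made 3 calls among the 35, against 25.1% of genes, and the others were Fabp1 and Acaa1b upwards. F1 pools against nude pools gave no call among 4 genes, where 12.0% of 6010 were called. Glul had the smallest p there (log2 -1.45, edgeR p = 0.0522), none was under 0.05, and DESeq2 called 3 of the 35 (Hpd, Aldh1a1 and Fbp1, all lower in F1), against 16.1% of genes. Gnmt, at -0.26 in edgeR (adjusted p = 0.893), was called lower in F1 pools by limma-voom (-2.62, adjusted p = 0.032, where the median of all genes was -0.35).

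The same tissue was also compared between 10-cell and pool libraries. In nude livers edgeR called none of the 7 tested genes between 10-cell and pool libraries, where 1.25% of 6299 genes were called, and no edgeR p was under 0.05. DESeq2 called Adh1 and Bhmt, against 7.32% of genes, and limma-voom called Fabp1 higher in 10-cell libraries (log2 2.40, adjusted p = 0.0406, where the median of all genes was 0.45), against 6.40%. The Fabp1 value in edgeR was 1.46 (SE 0.82, adjusted p = 0.396). In F1 livers Glul was higher in 10-cell libraries (log2 2.39, SE 0.79, edgeR adjusted p = 0.04997), the only call among 5 tested, where 7.22% of 6439 genes were called. Its median was 8.83 CPM in 10-cell and 0.732 in pool libraries. Without the library of highest summed enzyme level in each group the adjusted edgeR p was 0.0574 at a log2 value of 2.36. Above the Rpl19-ps11 gap it was 2.15 (edgeR adjusted p = 0.148) and below it 3.39 (edgeR adjusted p = 0.63). DESeq2 (2.29, adjusted p = 0.00931) and limma-voom (2.86, adjusted p = 0.012, where the median of all genes was 0.69) called it.

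For the spread, each library's distance from its group's median was taken on the log2(CPM + 1) scale. In nude livers 14 of the 35 genes reached a mean of 5 CPM and limma called 1, Bhmt, with a mean deviation of 1.69 in 10-cell and 0.349 in pool libraries (difference 1.34, SE 0.32, adjusted p = 0.027), where 0.777% of 9397 genes were called. Bhmt was found in 20 of 33 10-cell libraries, with a mean of 12.8 CPM, and in 8 of 35 pools, with a mean of 0.99. It thus passed the filter through the 10-cell libraries, and pools mostly at 0 had to have the smaller deviation, so nothing about evenness is read from this call. On the log2(CPM + 10) scale the difference was 0.54 (limma adjusted p = 0.201). In F1 livers 13 were tested and none was called by limma, where 1.48% of 8759 genes were. At an unadjusted limma p under 0.05 there were 4, Fbp1, Glul, Fabp1 and Bhmt. Fbp1 and Bhmt were each found in only 2 of 24 F1 pools, so their small pool deviations are those of libraries at 0. Pools did not hold every enzyme evenly: 17 of the 35 in nude and 24 in F1 pools had over 50% of their summed CPM in 1 library. Examples were Pck1 with 149.9 CPM in nude pool 31, Cyp2e1 with 304 in F1 pool 23 and Cyp2f2 with 144 in nude pool 29, the only nude pool that had it.

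Several of these enzymes were also counted in the pre-cancerous line RPC and in bulk libraries of the tumour lines. In the 24 RPC libraries Asl, Glul and Oat were found in every one, with medians of 42.4, 7.82 and 40.7 CPM. Acaa1b, Fah and Cyp2e1 were found in 16, 15 and 14, and Fabp1, Cps1, Pck1, Adh1 and Ces1c in none. In the 4 bulk libraries Glul was the highest of the 35 genes in 3, at 156 CPM in KP1, 82.1 in KP2 and 175 in KP3. In KP5 it had 64.2 CPM and Ass1 had 77.8, against 0.636 to 10.9 in the other lines. Fbp1 had 11.5 CPM in KP5 and no more than 0.637 in the others. Fabp1, Bhmt, Ces1c, G6pc, Cyp3a11, Cyp2a5, Cyp2f2, Cyp7a1 and Ugt2b1 had no count in any of the 4.

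Further genes of the same pathways were mostly below the filter. Of all genes 34.1% were called in nude and 12.6% in F1 livers against spheroids, and 19.2% in F1 against nude livers. For pools the shares were 25.6% in nude against spheroid and 12.0% in F1 against nude pools. The genes tested per list are too few to set beside these shares. Of 6 other urea cycle and ammonia genes 2 were tested and none called in either liver. Of 7 sugar genes 3 were tested and none called, but in nude pools Slc37a4, the glucose-6-phosphate transporter, was lower than in spheroid pools (log2 -4.15, SE 0.84, edgeR adjusted p = 7.74e-05). Of 14 other amino acid genes 2 were tested, and Gstz1, maleylacetoacetate isomerase, the step before Fah, fell by 2.18 in nude livers (log2, SE 0.72, edgeR adjusted p = 0.0134) and was 1.90 higher in F1 than in nude livers (edgeR adjusted p = 0.0489). In nude livers Gstz1 and Fah differed from spheroids in opposite directions. Of 18 other P450 genes 1 was tested and none called. Of 13 conjugation genes Gstp1 rose in F1 livers by 1.40 (log2, SE 0.36, edgeR adjusted p = 0.00511), as the only one tested. Its median was 298 CPM there and 307 in spheroids, and its highest F1 value was 6653. Sult1a1, a sulfotransferase, was found in 28 of 35 nude, 2 of 20 spheroid and 1 of 24 F1 pools. Nude pools had more of it than spheroid pools (log2 8.81, SE 1.35, edgeR adjusted p = 4.08e-07), and F1 pools less than nude pools (log2 -8.64, SE 1.25, edgeR adjusted p = 1.24e-06). Sult1a1 is named here for its small adjusted p and passed the filter through the nude pools, so these p-values are descriptions. In 10-cell libraries Sult1a1 was found in 22 of 33 nude, 4 of 28 spheroid and 4 of 31 F1 captures. Lgr5, a WNT target of pericentral hepatocytes, is named from the list of other pericentral genes for its small adjusted p. Its p-values are thus descriptions, and nothing about the zone is read from them. It was higher in nude than in spheroid pools (log2 2.48, SE 0.82, edgeR adjusted p = 0.0188). Its medians were 4.04 CPM in nude and 0.815 in spheroid pools, with 386 CPM in 1 nude pool. In 10-cell libraries the value was -0.12 (SE 0.65, edgeR adjusted p = 0.905), and F1 pools had less Lgr5 than nude pools (log2 -2.17, SE 0.67, edgeR adjusted p = 0.0239). Of 10 hepatocyte transcription factors Prox1 alone was tested, and it fell in nude livers by 1.43 (log2, SE 0.49, edgeR adjusted p = 0.018). Hnf4a, at 0 in all spheroid libraries, was found in 4 of 33 nude and 1 of 31 F1 10-cell libraries.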

How the data were processed

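Laser-captured 10-cell and pool-and-split libraries and bulk libraries were compared as labelled. The authors deposited 1 table of expected counts (estimated reads per gene, not normalized, 89.3% of the values whole). The submitters' processing notes name RSEM, Bowtie2, GRCm38 and GRCh38.p12, with no roles or versions. Coordinates are GRCm38. Counts were rounded and tested with edgeR 4.0.16 (TMM, filterByExpr, robust quasi-likelihood F test) in R 4.3.3, fitting only the groups compared, and were adjusted over all genes tested by Benjamini-Hochberg at 0.05. The 92 ERCC rows were left out. Spread was tested with limma 3.58.1 on log2(CPM + 1) where a gene's mean reached 5 CPM. Alternatives used DESeq2 1.42.0, limma-voom, RLE scaling, other filters, the label numbers as a block and subsets of libraries. A fold change against 0 counts is a lower bound from 3 counts over the whole group, for counting error only. The fits were tested on simulated data. No pair of libraries looked like 1 library deposited again. Oat (with Fgfr2), Glul (Teddm2), Uox (Dnase2b), Aldh1a1 (Gm6684), Acaa1b (Dlec1), Sds (Plbd2), Hpd (Psmd9) and Cyp2c29 (Cyp2c53-ps) overlap the gene in brackets, so their counts are uncertain to that extent. Every gene of the list may be named; the values of 1 periportal gene are not reported here, though sums and counts over the list include it. Of the other pathway genes those called with the 2 smallest adjusted p per list may be, and Hnf4a was named after its values were seen. The gene list, its zones and roles and the other lists were chosen with earlier results of these data known.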

Additional observations from a re-analysis of the deposited data

Results flagged for a closer look

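Fah, fumarylacetoacetase of tyrosine breakdown, differed between the livers by the test of the difference itself: its level in 10-cell libraries was lower in F1 than in nude livers by a log2 value of -2.489 (edgeR adjusted p = 0.0285). The call was lost without the library of highest summed enzyme level in each liver (-1.94, edgeR adjusted p = 0.0914) and within the 26 F1 libraries above the Rpl19-ps11 gap (-2.31, edgeR adjusted p = 0.065). Fah was found in 26 of 33 nude and 11 of 31 F1 libraries. The summed hepatocyte markers differed in the same direction, with medians of 842 and 198 CPM, and Alb was lower in F1 livers by a log2 value of -1.80 (edgeR adjusted p = 0.0341); their part in the Fah difference was not tested.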

How the results depend on the processing

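The number of the 35 genes called moved most with the filter and the tool. Nude livers against spheroids gave 4 calls in edgeR, 18 with DESeq2, 26 with no filter, 10 with a mean of at least 5 CPM and 8 against the spheroid libraries with more spike-in, where 34.1%, 36.3%, 42.0%, 36.0% and 19.4% of all genes were called. F1 livers against spheroids gave 1, and 11, 23 and 6 under the first 3 of these, 2 with limma-voom (both lower), 2 against the spheroids with more spike-in and 0 with the F1 libraries below the Rpl19-ps11 gap (all genes 12.6%, 20.7%, 26.7%, 14.9%, 23.8%, 1.96% and 3.65%). F1 against nude livers gave 1, and 4 with DESeq2, 3 with limma-voom, 12 with no filter, 4 with a mean of at least 5 CPM and 0 without the highest libraries, above the gap or below it (all genes 19.2%, 22.2%, 24.8%, 31.7%, 21.8%, 17.9%, 18.1% and 2.07%). Nude against spheroid pools gave 2, and 10, 5, 23 and 7 in the same order, 3 by RLE scaling (Gstm1 added, -1.93, edgeR adjusted p = 0.0499) and 1 with more spike-in (all genes 25.6%, 32.1%, 59.7%, 39.3%, 27.6%, 27.0% and 8.17%). F1 against spheroid pools gave 0, and 3, 3, 20 and 4, with 1 by RLE scaling and 1 below the gap (all genes 11.6%, 25.1%, 46.1%, 28.3%, 15.7%, 11.8% and 18.8%). F1 against nude pools gave 0, and 3, 1, 14 and 5, with 1 below the gap (all genes 12.0%, 16.1%, 13.7%, 29.5%, 18.4% and 3.05%). Nude 10-cell against pool libraries gave 0, and 2, 1, 10 and 2 (all genes 1.25%, 7.32%, 6.40%, 22.2% and 7.45%). F1 10-cell against pool libraries gave 1, and 3 with DESeq2, 14 with no filter, 4 with a mean of at least 5 CPM, and 0 without the highest libraries, above the gap or below it (all genes 7.22%, 12.3%, 24.6%, 11.9%, 6.91%, 4.55% and 0.00%). The nude spread test gave 1, and 0 with log2(CPM + 10) or a mean of at least 20 CPM (all genes 0.777%, 0.0532% and 0.148%). Apart from the filters and subsets, which change what is tested, the cause was not tested.

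Of the single-gene values under all alternatives 390 kept direction and side of the threshold, 24 passed it newly, 19 no longer passed it and 42 changed direction, of which 41 were called in neither fit. Gnmt in F1 against nude livers, at 0.53, was -2.63 with limma-voom, the 1 called, and -0.70 with DESeq2, -3.69 with the replicate block and -2.08 below the gap. There Fabp1 (0.86) was -0.93 with limma-voom, -1.09 with the block and -1.51 below the gap, and Gstm1 (0.60) -0.025 with the block. Glul (-0.08) was 0.023 with DESeq2, 0.048 with limma-voom, 0.069 with no filter, 0.36 with the block, 0.012 without the highest libraries and 0.68 below the gap. In nude livers against spheroids Glul (0.86) was -0.0080 with DESeq2. In nude against spheroid pools Glul (-0.81) was 0.070 with the block and Oat (-0.54) 0.012 with less spike-in. In F1 against spheroid pools Asl (2.68) was -2.70 with the block, and in F1 against nude pools (-0.09) 0.24 above the gap. In nude 10-cell against pool libraries limma-voom and the block gave 1.22 and 1.21 for Asl (-0.05), 1.37 and 1.81 for Fah (-0.24), 0.85 and 1.09 for Gnmt (-0.47) and 0.93 and 1.66 for Hpd (-0.05). Asl was 0.49 without the highest libraries and Fah 0.21 with DESeq2. In F1 10-cell against pool libraries Asl (-0.39) was 0.74 with DESeq2, 1.48 with limma-voom, 1.53 with the block and 1.76 without the highest libraries, and Oat (0.12) was -0.054 with DESeq2 and -0.42 above the gap. In the spread tests Aldh1a1 (nude) was -0.029 and Asl (F1) 0.20 without the highest libraries. With log2(CPM + 10) Fbp1 (nude) was -0.16 and in F1 Acaa1b -0.15, Aldh1b1 -0.16 and Asl 0.17, and Acaa1b was -0.11 with the block. The cause of these changes was not tested.

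The label numbers did not pair the libraries: correlations of deviations of same-numbered libraries ran from -0.159 to 0.224, and 1 or 2 libraries per comparison matched their own number best. With the replicate block, nude livers against spheroids gained Gstm1 (-2.22, edgeR adjusted p = 0.0482) for 5 calls. F1 livers against spheroids kept 1 call but not the same gene: Asl was not called (1.11, edgeR adjusted p = 0.475) and Oat was called lower (-2.87, edgeR adjusted p = 0.0267). Calls went to 0 in F1 against nude livers, where Fah was not among the genes tested, 4 in nude against spheroid pools, 2 in F1 against spheroid pools (Glul and Gstm1, both lower), 1 in F1 against nude pools (Gnmt, lower) and 0 in F1 10-cell against pool libraries. Over all genes the block called 35.8%, 13.0%, 13.2%, 40.2%, 27.1%, 3.51% and 0.0176% in these comparisons.

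Median genes found per library went from 15 to 10 in nude livers with at least 5 counts, from 11 to 6 in nude pools likewise and to 8 after thinning, and from 6 to 4 in thinned spheroid pools. The median periportal share, with only the genes at 0 in spheroids, went from 42.9% to 88.9% in nude livers, from 23.7% to 42.9% in F1 livers, from 55.6% to 100% in nude pools and from 11.5% to 91.5% in F1 pools. These shares leave out zone genes with spheroid counts, such as Fbp1 and Cyp2e1. They rest on the libraries with any count of the genes kept, 25 of 33, 15 of 31, 19 of 35 and 8 of 24. Without Asl and Gstm1 it was 8.74% in nude and 2.05% in F1 pools. At these depths a gene at 0 in a library was not detected there, which does not show that it was absent.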
